A study of Mus musculus with 10 samples.

Results

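The comparison described here asks what differed between mouse liver tumours raised with Akt and Nras plus Foxo1AAA (Akt/Nras/Foxo1AAA tumours, titled Akt/Nras/FoxoAAA in the sample names) and tumours raised with Akt and Nras alone (Akt/Nras tumours). It covers 6 of the 10 RNA sequencing samples of the series, 3 per tumour group, and the 11549 of 56748 listed genes that reached at least 1 FPKM in at least 3 of those 6 libraries. The other 4 samples, normal livers of wild-type FVB mice, entered as a reference level and as a source of replicate spread. All 10 samples are labelled with the genotype WT, and the treatment labels of both tumour groups include Akt and Nras. The labels' protocol gives hydrodynamic tail vein injection, which pushes plasmid DNA into hepatocytes, as the way the tumours were made. The sources used here give neither the age and sex of the mice and the time from injection to collection nor the promoters and species of the delivered sequences. FPKM, fragments per kilobase of gene scaled to sequencing depth, is a level per gene length that can be compared between genes. The labels do not say that each tumour came from a separate mouse, so p-values measure only the spread between these samples.

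AKT is the growth kinase downstream of insulin and growth factor receptors. In the liver it phosphorylates the forkhead transcription factor FOXO1, which then leaves the nucleus, and it also inhibits GSK3 and the TSC complex. In fasting, when AKT is quiet, nuclear FOXO1 activates genes of glucose production, lipoprotein secretion and insulin sensitivity. Foxo1AAA carries alanines in place of the residues that AKT phosphorylates, so AKT no longer expels it from the nucleus. The series asks which AKT substrates carry the tumour-promoting activity of AKT.

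Foxo1 itself separated the groups. Its FPKM was 6.05, 5.37 and 6.005 in Akt/Nras replicates 1 to 3 and 83.3, 77.9 and 125 in Akt/Nras/Foxo1AAA replicates 1 to 3, against 6.75 to 8.02 in normal liver. All 3 Akt/Nras/Foxo1AAA libraries were far above every other library, and the rise was 16.4-fold (limma log2 change 3.79 ± 0.15 SE, adjusted p = 1.86e-06, 6-library fit 0.00139). Changes are of log2(FPKM + 1), the adjusted p comes from a limma fit over all 10 libraries, and the second p, from the 6-library fit, is adjusted in the same way over the 6 tumour libraries alone. Where a pseudocount of 0.1 in place of 1 ended a call, its adjusted p is given too. Reads of a delivered Foxo1AAA sequence and of the resident gene cannot be told apart in a value per gene. Akt1, the Akt paralog far above normal liver in every tumour, was 963, 719.5 and 958 in Akt/Nras libraries and 670.4, 771 and 1198 in Akt/Nras/Foxo1AAA libraries, against 20.6 to 21.6 in normal liver. Its tumour groups overlapped (limma log2 change -0.03 ± 0.19 SE, adjusted p = 0.923, 6-library fit 0.942), and Akt/Nras/Foxo1AAA replicate 3 had the highest value of both Akt1 and Foxo1. Nras was 11.01, 9.62 and 10.7 in Akt/Nras and 9.46, 8.96 and 9.28 in Akt/Nras/Foxo1AAA libraries, and the difference did not pass the test (limma log2 change -0.16 ± 0.08 SE, adjusted p = 0.215, 6-library fit 0.305).

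Related transcripts did not pass the test. Foxo3 was 6.87, 7.26 and 6.67 in Akt/Nras and 6.69, 6.57 and 6.898 in Akt/Nras/Foxo1AAA libraries (limma log2 change -0.04 ± 0.08 SE, adjusted p = 0.792, 6-library fit 0.798), and Foxo4 was 11.6, 12.4 and 10.2 in Akt/Nras and 13.5, 13.2 and 12.01 with Foxo1AAA (limma log2 change 0.17 ± 0.10 SE, adjusted p = 0.28, 6-library fit 0.347; its sign turned on the scale of equal totals described below). Of the 18 tested genes in a panel of injected genes, their paralogs and AKT substrates, Foxo1 rose and Tbc1d1, a Rab GTPase-activating protein of glucose transporter traffic, fell (limma log2 change -0.50 ± 0.14 SE, adjusted p = 0.0433, 6-library fit 0.0634, not called with a pseudocount of 0.1 at 0.161). The Tbc1d1 values were 4.61, 3.37 and 3.97 in Akt/Nras and 2.66, 2.21 and 2.65 in Akt/Nras/Foxo1AAA libraries. Tbc1d1 was not called with normal liver replicate 2 or 3, Akt/Nras replicate 1 or 3 or any Akt/Nras/Foxo1AAA library left out (adjusted p up to 0.134). On the deposited scale 5.56% of the panel rose and 5.56% fell, against 8.83% and 4.81% of all tested genes. On the scale of equal totals 6 of the 18 fell, where 29.8% of all tested genes fell. Gsk3a, Gsk3b, Tsc1 and Tsc2, the kinase and complex genes named by the study's title and their partners, had log2 changes of 0.02, -0.07, 0.16 and 0.07, those of Gsk3a and Tsc2 being negative on the scale of equal totals (-0.22 and -0.13). None of the 4 passed the test (limma adjusted p from 0.313 to 0.911).

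Across all tested genes, 1020 (8.83%) were called higher and 556 (4.81%) lower in Akt/Nras/Foxo1AAA than in Akt/Nras tumours. A call means a limma adjusted p under 0.05 in the fit over all 10 libraries, which share 1 estimate of the spread. The log2(FPKM + 1) scale understates the change of genes at low levels. Of the called genes 228 higher and 72 lower changed by at least 1 log2 unit. In the fit of the 6 tumour libraries alone (the 6-library fit) 221 (1.91%) were called higher and 102 (0.883%) lower. The 2 fits shared 219 of the higher and 96 of the lower calls. The median log2 change of all tested genes was -0.02. Rescaling each library to the same FPKM total moved that median to -0.22 and the calls to 649 (5.62%) higher and 3436 (29.8%) lower, so that 15.9% of calls were higher instead of 64.7%. Among those calls were 641 of the 1020 higher and all 556 lower genes of the deposited scale.

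The tumour libraries had 15390000 to 21260000 reads in genes, as recovered from FPKM and gene length, and summed to 349600 to 381700 FPKM in Akt/Nras and 413800 to 444900 in Akt/Nras/Foxo1AAA libraries. Normal liver libraries summed to 692000 to 743200 FPKM, so every level set against normal liver holds for the deposited scale only. On the first principal component of the 6 tumours, which held 58.8% of their variance, Akt/Nras replicates 1 to 3 lay at -33.3, -16.7 and -13.6. Akt/Nras/Foxo1AAA replicates 1 to 3 lay at 34.4, 21.6 and 7.62. The groups did not overlap there, and Akt/Nras/Foxo1AAA replicate 3, the library with the most Foxo1, lay nearest to the Akt/Nras libraries. Leaving out Akt/Nras/Foxo1AAA replicate 1 gave 453 higher and 169 lower calls, leaving out replicate 2 of that group gave 490 and 210, and leaving out Akt/Nras replicate 1 gave 677 and 328. Without Akt/Nras replicate 3 the calls were 874 and 326. The libraries of the tumour groups did not overlap for 1897 higher genes (16.4%) and 1892 lower genes (16.4%). In every one of the 10 fits that each left out 1 library, 404 higher and 129 lower calls were kept.

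**Figure D1:**
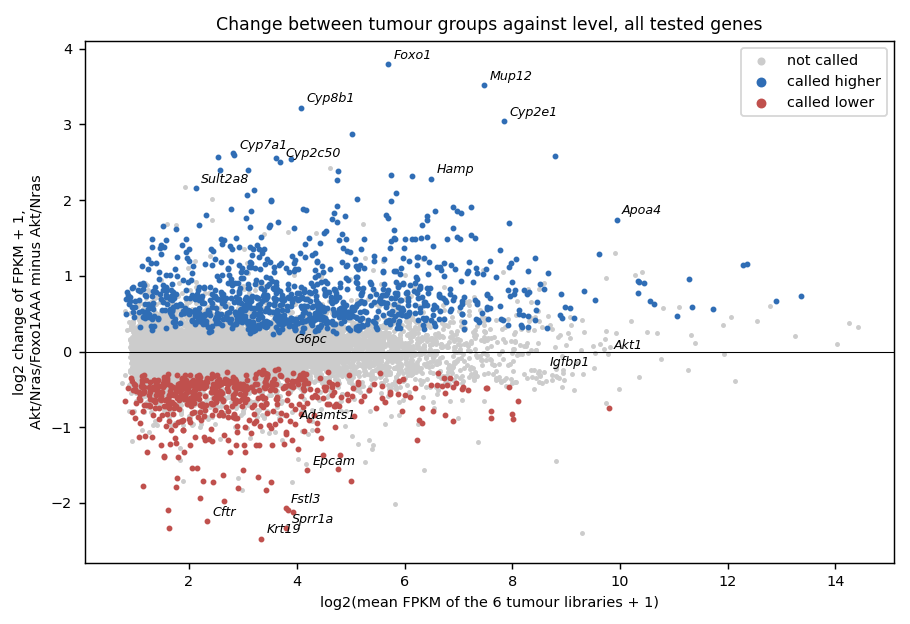
Each point is 1 of the 11549 tested genes, placed by the mean level of the 6 tumour libraries (x axis, log2 of FPKM + 1) and by the log2 change of FPKM + 1 from Akt/Nras to Akt/Nras/Foxo1AAA tumours (y axis), with genes called higher in blue, called lower in red and not called in grey. Foxo1 lies at the top at 3.79, Krt19 at -2.47, and the classical FOXO1 targets G6pc and Igfbp1 lie near 0 in grey.

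Among textbook hepatic targets of FOXO1, the genes G6pc, Pck1, Igfbp1, Irs2 and Insr did not pass the test. G6pc, the last enzyme of glucose release, was 10.4, 13.5 and 15.4 FPKM in Akt/Nras and 17.6, 10.3 and 13.2 in Akt/Nras/Foxo1AAA libraries, against 142 to 204 in normal liver (limma log2 change 0.05 ± 0.20 SE, adjusted p = 0.897, 6-library fit 0.907), with the sign turned to -0.18 on the scale of equal totals. Pck1, which commits carbon to gluconeogenesis, was 347, 132 and 307 in Akt/Nras and 471, 312 and 378 with Foxo1AAA (limma log2 change 0.66 ± 0.32 SE, adjusted p = 0.192, 6-library fit 0.297). Igfbp1, a secreted binding protein for insulin-like growth factors, was 528, 206 and 374 in Akt/Nras and 138, 196 and 859 in Akt/Nras/Foxo1AAA libraries, a spread within the second group that spanned the whole first group (limma log2 change -0.27 ± 0.61 SE, adjusted p = 0.802, 6-library fit 0.834). Its highest value belonged to Akt/Nras/Foxo1AAA replicate 3. Irs2, an adaptor of the insulin receptor, was 5.12, 1.67 and 2.48 in Akt/Nras and 1.94, 1.38 and 1.95 with Foxo1AAA (limma log2 change -0.49 ± 0.27 SE, adjusted p = 0.251, 6-library fit 0.326). Insr, the receptor itself, was 5.22, 5.41 and 5.11 in Akt/Nras and 7.11, 6.08 and 6.44 with Foxo1AAA; the groups did not overlap but the difference missed the threshold (limma log2 change 0.27 ± 0.08 SE, adjusted p = 0.0589, 6-library fit 0.124).

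In a list of FOXO targets, 5 of 38 tested members (13.2%) rose, against 8.83% of all tested genes, and 0 fell, with a median log2 change of 0.12 against -0.02 for all genes. The 6-library fit called 0 of them, and the count of 5 was 1 without Akt/Nras/Foxo1AAA replicate 1, 2 without replicate 2 of that group or Akt/Nras replicate 1, 3 without Akt/Nras replicate 2, and 11 with library weights. It was 8 with voom on recovered reads, which called 11.1% of all genes higher. On the scale of equal totals 4 rose and 6 fell, where 5.62% of all tested genes rose and 29.8% fell. The 5 that rose were Apoc3, Selenop, Cat, Gabarapl1 and Mttp. Selenop, the plasma selenium carrier, was 812, 974 and 1085 in Akt/Nras and 1861, 1567 and 1482 in Akt/Nras/Foxo1AAA libraries, against 1457 to 1728 in normal liver (limma log2 change 0.78 ± 0.14 SE, adjusted p = 0.00854, 6-library fit 0.0521). The lowest Akt/Nras/Foxo1AAA value was above the highest Akt/Nras value, and the call was kept whichever library was left out. Apoc3, an apolipoprotein that slows triglyceride clearance, was 761, 763 and 1101 in Akt/Nras and 2081, 1894 and 1125 with Foxo1AAA, so that replicate 3 of the Akt/Nras/Foxo1AAA group was just above the Akt/Nras range (limma log2 change 0.93 ± 0.23 SE, adjusted p = 0.0242, 6-library fit 0.0939). Cat, the peroxide-degrading catalase, was 189, 221 and 224 in Akt/Nras and 477, 390.3 and 270.4 with Foxo1AAA (limma log2 change 0.81 ± 0.18 SE, adjusted p = 0.0188, 6-library fit 0.0753). Mttp, which loads lipid onto lipoproteins, and Gabarapl1, an autophagosome protein, had log2 changes of 0.52 and 0.62 (limma adjusted p = 0.0145 and 0.0234, 6-library fit 0.0663 and 0.0884). Cat was not called with Akt/Nras replicate 1 or Akt/Nras/Foxo1AAA replicate 1 or 2 left out (adjusted p up to 0.0668). Apoc3 was not called with Akt/Nras replicate 1 or 2 or Akt/Nras/Foxo1AAA replicate 1 or 2 left out (adjusted p up to 0.0913), Gabarapl1 was not called with Akt/Nras replicate 1 or 2 or Akt/Nras/Foxo1AAA replicate 1 or 2 left out (adjusted p up to 0.0783), and Mttp was not called with Akt/Nras/Foxo1AAA replicate 1 left out (adjusted p up to 0.052).

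The FOXO core element GTAAACA, searched on both strands from 250 bases before to 50 after each gene start in RefSeq's promoter windows (GRCm38.p6), was present in 3.65% of 32851 windows. Windows were matched for 4 of the 5 FOXO targets that rose, and 1 of these held the element. The insulin response element CAAAACAA was in 2.51% of all windows and in 0 of the 4. The window that held the core element belongs to Selenop. Its last 150 bases before the start, chr15:3270827-3270976 on the plus strand, are printed because they hold the match, in capitals, which starts 24 bases before the start.
Selenop: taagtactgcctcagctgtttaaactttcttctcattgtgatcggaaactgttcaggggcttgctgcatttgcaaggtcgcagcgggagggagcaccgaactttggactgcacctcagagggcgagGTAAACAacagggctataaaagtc

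Gluconeogenesis as a list held 7 of 17 tested members that rose (41.2%, against 8.83% of all genes) and 0 that fell, but neither G6pc nor Pck1 among them. Gcgr, the glucagon receptor, was 17.9, 23.2 and 32.1 in Akt/Nras and 76.9, 57.2 and 44.8 in Akt/Nras/Foxo1AAA libraries, against 149.5 to 163 in normal liver (limma log2 change 1.26 ± 0.21 SE, adjusted p = 0.00673, 6-library fit 0.0508). Slc37a4, which carries glucose phosphate to the compartment of G6pc, rose 1.799-fold (limma log2 change 0.83 ± 0.12 SE, adjusted p = 0.00385, 6-library fit 0.0419), and Gpt, an alanine aminotransferase, 1.67-fold (limma log2 change 0.71 ± 0.17 SE, adjusted p = 0.0259, 6-library fit 0.0949). Gpt was not called with Akt/Nras replicate 1 or 2 or Akt/Nras/Foxo1AAA replicate 1 or 2 left out (adjusted p up to 0.0714). The count of 7 was 1 in the 6-library fit, 3 on the scale of equal totals, 4 without Akt/Nras replicate 1 or Akt/Nras/Foxo1AAA replicate 2, and 3 without Akt/Nras replicate 2 or Akt/Nras/Foxo1AAA replicate 1. In insulin and PI3K signalling 0 of 20 rose and 1 fell (5%, against 4.81% of all genes). It was Grb10, an adaptor that restrains insulin and growth factor receptors. Grb10 was 4.93, 2.91 and 3.69 in Akt/Nras and 2.27, 1.102 and 1.39 in Akt/Nras/Foxo1AAA libraries, against 0.366 to 0.678 in normal liver (limma log2 change -0.91 ± 0.19 SE, adjusted p = 0.0131, 6-library fit 0.0584). Grb10 was not called with Akt/Nras/Foxo1AAA replicate 2 left out (adjusted p up to 0.052). Of 21 genes of the TSC and mTOR complexes 2 rose (9.52%, near the 8.83% of all genes). Deptor, an inhibitory subunit of mTOR complexes, and Eif4ebp2, a repressor of cap-dependent translation, rose by 0.50 and 0.38 log2 units (limma adjusted p = 0.0209 and 0.0259). Neither was called in the 6-library fit (0.064 and 0.104) or on the scale of equal totals (0.0739 and 0.318). Deptor was not called with Akt/Nras replicate 1 or Akt/Nras/Foxo1AAA replicate 1 or 2 left out (adjusted p up to 0.0843), and Eif4ebp2 was not called with Akt/Nras replicate 3 or Akt/Nras/Foxo1AAA replicate 1 or 2 left out (adjusted p up to 0.0925).

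Lists of differentiated hepatocyte functions held most of the highest shares of genes that rose. Bile acid synthesis turns cholesterol into detergents for fat digestion, and the liver takes them up from portal blood and exports them into bile. In this list 15 of 24 tested members rose (62.5%, against 8.83%) and 0 fell, with a median log2 change of 0.83. Of these 8 were called in the 6-library fit, and 13 to 17 were called whichever library was left out. Cyp8b1, the sterol hydroxylase that directs synthesis to cholic acid, was 1.06, 1.96 and 2.81 FPKM in Akt/Nras and 54.8, 16.7 and 18.1 in Akt/Nras/Foxo1AAA libraries, against 205 to 381 in normal liver. Every Akt/Nras/Foxo1AAA library was above every Akt/Nras library and below every normal liver, and the rise was 15.3-fold (limma log2 change 3.22 ± 0.41 SE, adjusted p = 0.00283, 6-library fit 0.0408). Cyp7a1, the rate-limiting enzyme of the pathway, was 0.233, 0.647 and 2.33 in Akt/Nras and 15.01, 5.88 and 12.6 in Akt/Nras/Foxo1AAA libraries, against 57.5 to 111 in normal liver, with the same order of groups (limma log2 change 2.599 ± 0.40 SE, adjusted p = 0.00507, 6-library fit 0.0408). Cyp27a1, the mitochondrial sterol hydroxylase of the alternative route, was 16.9, 18.8 and 28.3 in Akt/Nras and 100.5, 67.6 and 63.3 with Foxo1AAA (limma log2 change 1.81 ± 0.20 SE, adjusted p = 0.00183, 6-library fit 0.0408).

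Uptake and export genes for bile acids rose as well. Slco1b2, a transporter of organic anions from blood, was 5.13, 14.9 and 22.5 in Akt/Nras and 67.8, 49.8 and 42.8 in Akt/Nras/Foxo1AAA libraries (limma log2 change 2.02 ± 0.38 SE, adjusted p = 0.00981, 6-library fit 0.0578). Slc10a1, the sodium-dependent bile acid importer, and Abcb11, the bile salt export pump, were picked after their values were seen. Slc10a1 was 9.87, 7.96 and 13.8 in Akt/Nras and 46.8, 34.8 and 31.6 in Akt/Nras/Foxo1AAA libraries, against 395 to 469 in normal liver (limma log2 change 1.76 ± 0.19 SE, adjusted p = 0.00171, 6-library fit 0.0408). Abcb11 was 5.77, 10.4 and 16.1 in Akt/Nras and 47.1, 40.7 and 28.2 with Foxo1AAA, against 43.6 to 56.4 in normal liver, so that Akt/Nras/Foxo1AAA replicate 1 reached the normal range (limma log2 change 1.82 ± 0.29 SE, adjusted p = 0.0055, 6-library fit 0.046). Of the 15 genes that rose 11 had matched promoter windows, and 0 of these genes held the GTAAACA or CAAAACAA element there. Of all tested genes with matched windows 3.33% held GTAAACA and 2.11% held CAAAACAA. At such shares 11 genes are too few to show a lack of either element.

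**Figure D2:**
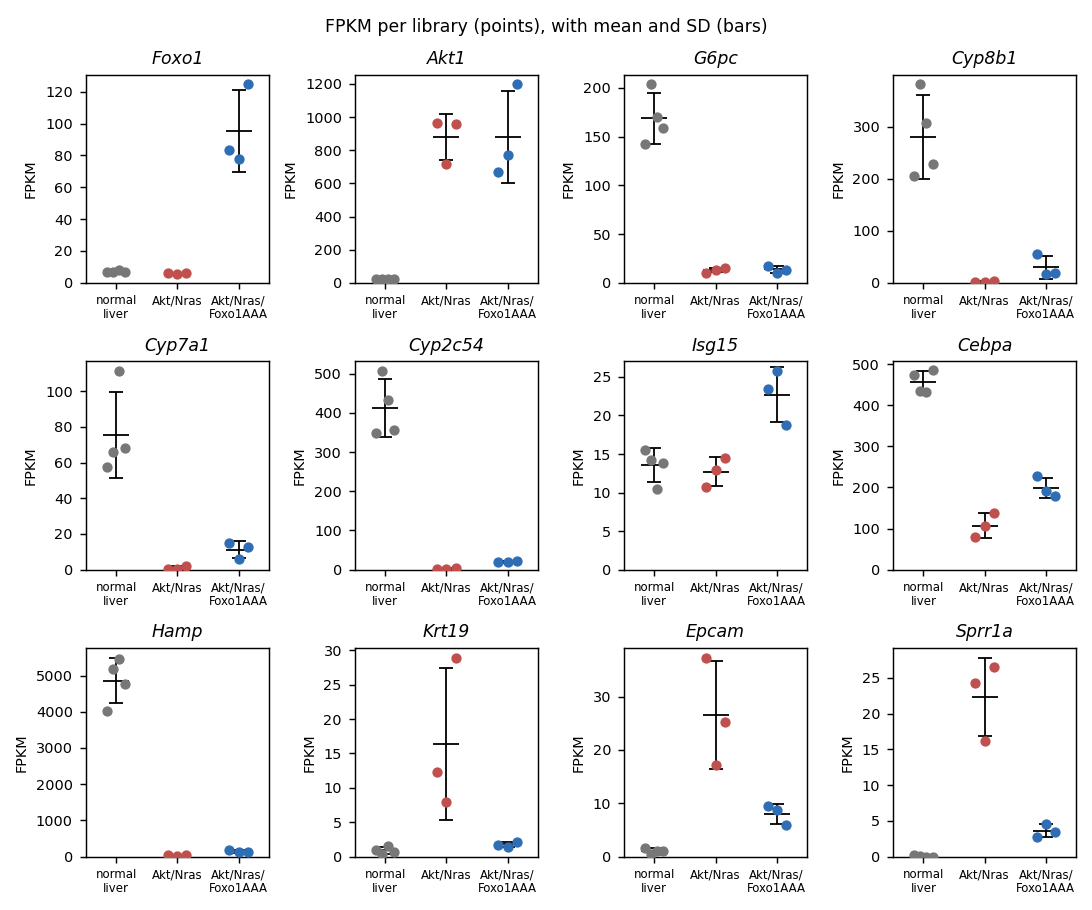
FPKM (y axis, from 0) of 12 genes in normal liver (grey), Akt/Nras (red) and Akt/Nras/Foxo1AAA (blue) libraries, with 1 point per library and a bar for the mean and SD of each group. Foxo1 stands apart in the Akt/Nras/Foxo1AAA libraries, Akt1 and G6pc overlap between the tumour groups, Cyp8b1, Cyp7a1, Cyp2c54, Cebpa and Hamp lie between Akt/Nras and normal liver, and Krt19, Epcam and Sprr1a are highest in Akt/Nras libraries.

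Cytochrome P450 enzymes oxidise drugs, steroids and fatty acids, mostly in the hepatocytes around the central vein. Of 30 tested genes 21 rose (70.0%) and 0 fell, with a median log2 change of 1.17. In the 6-library fit 10 were called, and 15 to 23 were called whichever library was left out. Cyp2e1, which metabolises ethanol and paracetamol, was 11.7, 71.3 and 114 in Akt/Nras and 426, 322 and 428 in Akt/Nras/Foxo1AAA libraries, against 5913 to 6987 in normal liver (limma log2 change 3.04 ± 0.61 SE, adjusted p = 0.0119, 6-library fit 0.064). Akt/Nras replicate 1 was the lowest library, and the highest Akt/Nras value was still below the lowest Akt/Nras/Foxo1AAA value. Cyp2c54 was 1.63, 1.89 and 4.703 in Akt/Nras and 19.2, 18.6 and 21.6 with Foxo1AAA, against 349 to 506 in normal liver (limma log2 change 2.56 ± 0.26 SE, adjusted p = 0.00106, 6-library fit 0.0321). Cyp2c50 rose 7.12-fold from 2.02, 2.79 and 4.004 to 20.6, 19.5 and 22.7 (limma log2 change 2.504 ± 0.17 SE, adjusted p = 9.72e-05, 6-library fit 0.00792), and its 3 Akt/Nras/Foxo1AAA libraries lay closely together. Cyp2c38, at 1.95, 3.06 and 5.495 in Akt/Nras and 22.3, 20.1 and 29.99 in Akt/Nras/Foxo1AAA libraries, reached the normal liver range of 18.4 to 23.3 (limma log2 change 2.54 ± 0.25 SE, adjusted p = 0.000986, 6-library fit 0.0324). The Cyp2c genes are a family of close copies, so reads can be split among them, and the single values are uncertain to that extent.

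Conjugating enzymes and esterases rose in 21 of 43 tested cases (48.8%), and 0 fell. The 6-library fit called 9 of them, and 13 were called without Akt/Nras/Foxo1AAA replicate 2. Ces3b, a carboxylesterase, was 0.118, 0.482 and 1.098 in Akt/Nras and 14.3, 8.94 and 3.82 in Akt/Nras/Foxo1AAA libraries, against 355 to 459.6 in normal liver (limma log2 change 2.57 ± 0.36 SE, adjusted p = 0.00351, 6-library fit 0.0408). Replicate 3 of the Akt/Nras/Foxo1AAA group was the lowest of its group and still above every Akt/Nras library. Ces1g, another carboxylesterase, rose 3.88-fold (limma log2 change 1.86 ± 0.20 SE, adjusted p = 0.00171, 6-library fit 0.0408), and Ugt3a2, a glycosyltransferase, 3.04-fold (limma log2 change 1.59 ± 0.25 SE, adjusted p = 0.00538, 6-library fit 0.0473). Sult2a8, a liver sulfotransferase, was among the genes with the smallest p in the 6-library fit, at 0.222, 0.959 and 0.657 in Akt/Nras and 7.28, 5.71 and 5.33 in Akt/Nras/Foxo1AAA libraries, against 307 to 345 in normal liver (limma log2 change 2.16 ± 0.16 SE, adjusted p = 0.000167, 6-library fit 0.017). No Akt/Nras library reached 1 FPKM for Sult2a8, so it passed the filter only through the group where it was high. Inmt, a methyltransferase of small amines, was 5.24, 3.13 and 5.07 in Akt/Nras and 17.2, 16.3 and 14.9 with Foxo1AAA, against 1019 to 1357 in normal liver (limma log2 change 1.67 ± 0.16 SE, adjusted p = 0.000986, 6-library fit 0.0282). Rdh16f2, a retinol dehydrogenase, rose 10.7-fold from 0.433, 0.578 and 2.11 to 13.8, 7.56 and 11.9 (limma log2 change 2.62 ± 0.28 SE, adjusted p = 0.00174, 6-library fit 0.0408).

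Secreted liver proteins were higher as well. Of 27 plasma proteins and apolipoproteins 20 rose (74.1%) and 0 fell, and of 40 coagulation and complement genes 24 rose (60%) and 0 fell. Each list had 4 calls in the 6-library fit. The 20 plasma protein calls were 13, 12 and 11 without Akt/Nras replicate 1 and Akt/Nras/Foxo1AAA replicates 1 and 2, and the 24 coagulation and complement calls were 12 and 13 without Akt/Nras/Foxo1AAA replicates 1 and 2. Serpina6, the plasma carrier of glucocorticoids, was 2.35, 11.2 and 13.9 in Akt/Nras and 48.5, 41.8 and 39.8 in Akt/Nras/Foxo1AAA libraries, against 439.6 to 572 in normal liver (limma log2 change 2.38 ± 0.43 SE, adjusted p = 0.0088, 6-library fit 0.054). Apoa4, an apolipoprotein of fat absorption and export, was 419.6, 280 and 513 in Akt/Nras and 2657, 1406 and 606 in Akt/Nras/Foxo1AAA libraries, against 82.1 to 119 in normal liver. All tumours were above normal liver for Apoa4, and Akt/Nras/Foxo1AAA replicate 3 was close to the top of the Akt/Nras range (limma log2 change 1.74 ± 0.43 SE, adjusted p = 0.0264, 6-library fit 0.0963). Apoa4 was not called with Akt/Nras replicate 1 or 2 or Akt/Nras/Foxo1AAA replicate 1 or 2 left out (adjusted p up to 0.0801). Mug1, a protease inhibitor of mouse plasma, was 195, 190.1 and 229 in Akt/Nras and 529, 427 and 488 with Foxo1AAA (limma log2 change 1.23 ± 0.12 SE, adjusted p = 0.000859, 6-library fit 0.0321), and Mbl2, the mannose-binding lectin that starts a complement pathway, was 42.5, 67.5 and 78.2 in Akt/Nras and 267, 168 and 121 with Foxo1AAA (limma log2 change 1.52 ± 0.27 SE, adjusted p = 0.00854, 6-library fit 0.0538). Hrg, a histidine-rich plasma glycoprotein, rose 2.29-fold (limma log2 change 1.22 ± 0.21 SE, adjusted p = 0.00702, 6-library fit 0.0508). Alb, the most abundant plasma protein, was 18710, 20890 and 18380 in Akt/Nras and 26670, 25720 and 20320 in Akt/Nras/Foxo1AAA libraries. The groups overlapped through Akt/Nras/Foxo1AAA replicate 3, and the difference did not pass the test (limma log2 change 0.32 ± 0.17 SE, adjusted p = 0.236, 6-library fit 0.334).

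Genes of nitrogen metabolism rose too. In the urea cycle and ammonia list 8 of 14 members rose (57.1%) and 1 fell (7.14%), with 5 that rose without Akt/Nras/Foxo1AAA replicate 1 or 2, and 2 higher and 1 lower in the 6-library fit. Otc, which joins carbamoyl phosphate to ornithine, was 7.38, 10.3 and 14.7 in Akt/Nras and 37.2, 30.2 and 23.4 in Akt/Nras/Foxo1AAA libraries, against 125 to 175 in normal liver (limma log2 change 1.43 ± 0.23 SE, adjusted p = 0.00554, 6-library fit 0.045). Cps1, the entry enzyme of the cycle, rose 2.16-fold (limma log2 change 1.099 ± 0.21 SE, adjusted p = 0.00981, 6-library fit 0.0551) and Glul, the glutamine synthetase of pericentral cells, 2.15-fold (limma log2 change 1.13 ± 0.21 SE, adjusted p = 0.00953, 6-library fit 0.057). Among 33 genes of amino acid catabolism 17 rose (51.5%, against 8.83% of all genes) and 2 fell (6.06%, against 4.81%), with 4 and 0 in the 6-library fit and 11 that rose without Akt/Nras/Foxo1AAA replicate 1. Bhmt, which remethylates homocysteine, was 132, 64.7 and 147 in Akt/Nras and 562, 321 and 246 in Akt/Nras/Foxo1AAA libraries, against 284 to 421 in normal liver, so its highest library exceeded every normal liver (limma log2 change 1.703 ± 0.34 SE, adjusted p = 0.0118, 6-library fit 0.0582). Hpd, an enzyme of tyrosine breakdown, was 30.5, 30.6 and 108 in Akt/Nras and 236, 141 and 168 with Foxo1AAA (limma log2 change 1.91 ± 0.40 SE, adjusted p = 0.014, 6-library fit 0.0691). Hpd was not called with Akt/Nras/Foxo1AAA replicate 1 left out (adjusted p up to 0.0595). The 2 that fell, Oat and Sdsl, had log2 changes of -0.75 and -0.62, and neither was called in the 6-library fit (limma adjusted p = 0.0968 and 0.12). Oat was not called with normal liver replicate 4, any Akt/Nras library or Akt/Nras/Foxo1AAA replicate 1 or 2 left out (adjusted p up to 0.125). Sdsl was not called with any normal liver library, Akt/Nras replicate 1 or 3 or Akt/Nras/Foxo1AAA replicate 1 or 2 left out (adjusted p up to 0.175).

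Genes of fat synthesis, cholesterol synthesis and fat oxidation included many that rose. De novo lipogenesis had 10 of 21 members that rose (47.6%), cholesterol synthesis 7 of 23 (30.4%), and fatty acid oxidation and ketogenesis 11 of 27 (40.7%) with 1 that fell, each against 8.83% of all genes. Lipogenesis had 1 call without Akt/Nras/Foxo1AAA replicate 1 or 2 and 2 without Akt/Nras replicate 1, and 1 in the 6-library fit. Cholesterol synthesis had 1 without Akt/Nras/Foxo1AAA replicate 1 or 2, 2 without Akt/Nras replicate 1 or 3, 11 without Akt/Nras/Foxo1AAA replicate 3, 3 on the scale of equal totals and 2 in the 6-library fit. Fatty acid oxidation had 3 without Akt/Nras/Foxo1AAA replicate 1 or 2, 4 without Akt/Nras replicate 1, 7 without Akt/Nras replicate 2 or 3 or normal liver replicate 4, 4 on the scale of equal totals, and 2 in the 6-library fit.

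Fasn, the fatty acid synthase, was 14.03, 36.6 and 34.99 in Akt/Nras and 105, 91.1 and 46.6 with Foxo1AAA, against 83.6 to 173 in normal liver (limma log2 change 1.505 ± 0.41 SE, adjusted p = 0.0372, 6-library fit 0.0891). Fasn was not called with normal liver replicate 1 or 4, Akt/Nras replicate 1 or Akt/Nras/Foxo1AAA replicate 1 or 2 left out (adjusted p up to 0.135). Acot1, a cytosolic acyl-CoA thioesterase, fell from 7.35, 5.84 and 5.21 to 3.65, 3.98 and 3.29 (limma log2 change -0.61 ± 0.13 SE, adjusted p = 0.0138, 6-library fit 0.0538).

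**Figure D3:**
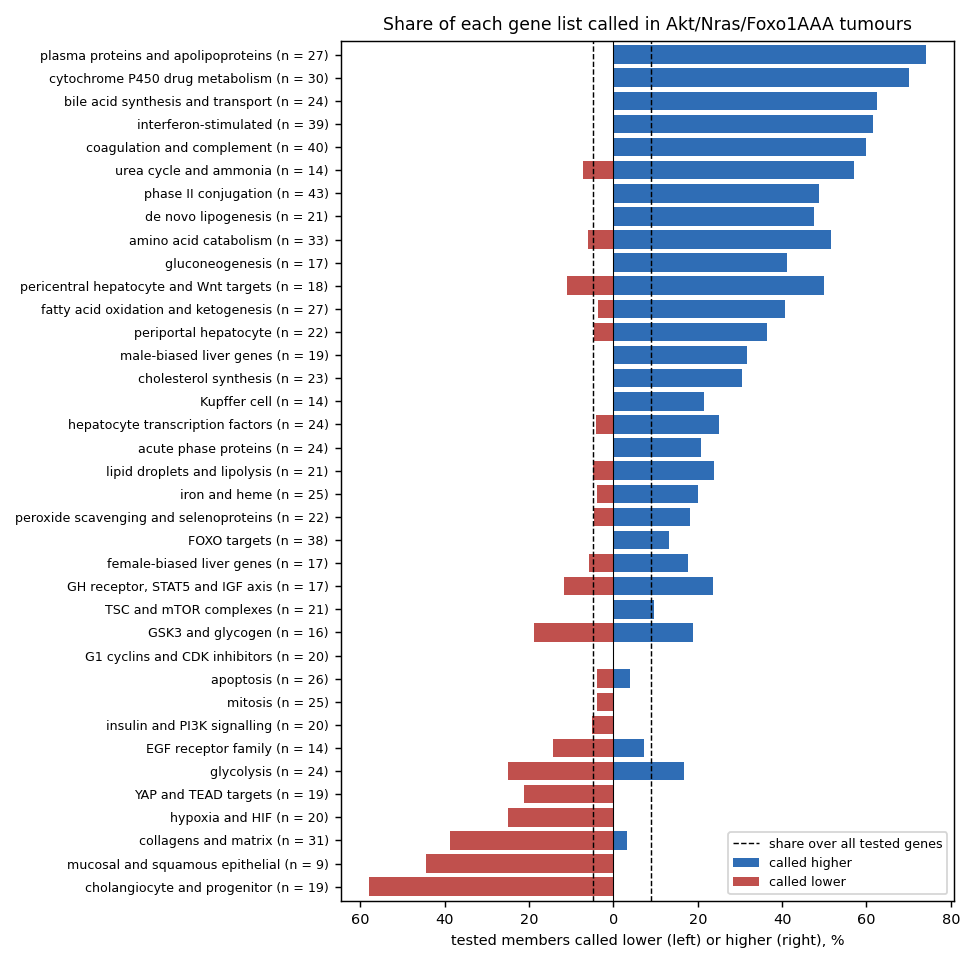
Bars give the share of tested members of each of 37 gene lists that were called higher (right, blue) or lower (left, red) in Akt/Nras/Foxo1AAA than in Akt/Nras tumours, in percent, and dashed lines mark the shares over all tested genes (8.83% higher, 4.81% lower). Plasma proteins (74.1%) and cytochrome P450 genes (70.0%) reach farthest to the right, and cholangiocyte and progenitor genes (57.9%) farthest to the left.

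Glycolysis genes moved in both directions. Of 24 glycolysis genes 4 rose (16.7%) and 6 fell (25.0%, against 4.81% of all genes). Those that rose included Pklr, the liver form of pyruvate kinase, and Gckr, a regulatory protein of hepatocytes, and the 6 that fell were Slc16a3, Slc2a1, Pgk1, Aldoa, Hk1 and Pgam1. Gckr, Aldoa, Hk1 and Pgam1 were named after their values were seen. Pklr was 19.3, 25.8 and 28.3 in Akt/Nras and 49.01, 40.99 and 42.01 in Akt/Nras/Foxo1AAA libraries, against 85.9 to 122 in normal liver (limma log2 change 0.83 ± 0.16 SE, adjusted p = 0.0102, 6-library fit 0.0467). Slc2a1, the widespread glucose transporter, was 41.2, 19.9 and 31.7 in Akt/Nras and 6.72, 10.4 and 18.3 in Akt/Nras/Foxo1AAA libraries, against 4.89 to 6.42 in normal liver (limma log2 change -1.36 ± 0.32 SE, adjusted p = 0.0202, 6-library fit 0.0822). Slc2a1 was not called with Akt/Nras replicate 1 or 3 or Akt/Nras/Foxo1AAA replicate 1 or 2 left out (adjusted p up to 0.0711). The 6 lower calls were 0 in the 6-library fit and without Akt/Nras replicate 1 or Akt/Nras/Foxo1AAA replicate 1 or 2, 1 without Akt/Nras replicate 3, and 3 without normal liver replicate 4. They were 17 on the scale of equal totals, where 29.8% of all tested genes fell. The 4 higher calls were 1 in the 6-library fit, where Pklr was called, and 2 without Akt/Nras replicate 1 or Akt/Nras/Foxo1AAA replicate 1.

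Glycogen genes were called in both directions. Gys2, the liver glycogen synthase, was 7.71, 9.59 and 11.3 in Akt/Nras and 27.3, 19.2 and 25.6 in Akt/Nras/Foxo1AAA libraries, against 121 to 174 in normal liver (limma log2 change 1.25 ± 0.17 SE, adjusted p = 0.00349, 6-library fit 0.0408). Gys1, the synthase of muscle and most other tissues, was 2.704, 1.99 and 2.33 in Akt/Nras and 1.24, 0.888 and 1.39 in Akt/Nras/Foxo1AAA libraries, against 0.764 to 0.978 in normal liver (limma log2 change -0.62 ± 0.12 SE, adjusted p = 0.00977, 6-library fit 0.054). Neither pair of tumour groups overlapped, and both calls were kept whichever library was left out. Pygl, the liver glycogen phosphorylase, rose 1.76-fold (limma log2 change 0.77 ± 0.16 SE, adjusted p = 0.0151, 6-library fit 0.0584) while Pygb, the brain form, fell 1.38-fold (limma log2 change -0.44 ± 0.12 SE, adjusted p = 0.0341, 6-library fit 0.0554, not called with a pseudocount of 0.1 at 0.0817). Pygb was not called with normal liver replicate 3 or 4, any Akt/Nras library or any Akt/Nras/Foxo1AAA library left out (adjusted p up to 0.0999). Of the 16 tested GSK3 and glycogen genes 3 rose (18.8%, against 8.83% of all genes) and 3 fell (18.8%, against 4.81%), the others being Gbe1, the branching enzyme (higher), and Pgm2, a phosphopentomutase (lower). Pygl and Gbe1 lost their calls without Akt/Nras/Foxo1AAA replicate 1, leaving 1 higher call. The 3 lower calls were 1 without Akt/Nras replicate 1 or 3 or any single Akt/Nras/Foxo1AAA library and 0 in the 6-library fit, which kept Gys2 and Gbe1.

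Of 20 tested hypoxia-induced genes 5 fell (25.0%, against 4.81% of all genes) and 0 rose, with a median log2 change of -0.58. Egln3, the oxygen-sensing hydroxylase that HIF itself induces, was 60.5, 32.9 and 43.9 in Akt/Nras and 5.505, 11.6 and 31.3 in Akt/Nras/Foxo1AAA libraries, against 3.43 to 5.36 in normal liver. Its Akt/Nras/Foxo1AAA values ranged from near the normal level in replicate 1 to just under the Akt/Nras range in replicate 3 (limma log2 change -1.71 ± 0.46 SE, adjusted p = 0.035, 6-library fit 0.109). Egln3 was not called with normal liver replicate 3 or 4, Akt/Nras replicate 1 or 3 or Akt/Nras/Foxo1AAA replicate 1 or 2 left out (adjusted p up to 0.104). Ndrg1, a stress-induced gene, was 22.1, 6.58 and 13.8 in Akt/Nras and 2.89, 3.15 and 4.08 with Foxo1AAA, against 1.13 to 2.84 in normal liver (limma log2 change -1.66 ± 0.34 SE, adjusted p = 0.0131, 6-library fit 0.0555). Ndrg1 was not called with Akt/Nras/Foxo1AAA replicate 1 left out (adjusted p up to 0.052). The other 3 were Slc2a1, P4ha1 and Ero1a. The 6-library fit called 0 of the 5. The count was 0 without Akt/Nras/Foxo1AAA replicate 1, 1 without replicate 2 of that group or Akt/Nras replicate 3, 2 without Akt/Nras replicate 1, 3 without normal liver replicate 4, and 10 without Akt/Nras/Foxo1AAA replicate 3. It was 16 on the scale of equal totals, where 29.8% of all tested genes fell.

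Some genes that normal liver expresses at very different levels in males and females also rose. In mice growth hormone pulses set this difference, and the major urinary proteins (Mup) are abundant male products. Of 19 tested male-biased genes 6 rose (31.6%, against 8.83% of all genes) and 0 fell. The count was 3 without Akt/Nras/Foxo1AAA replicate 1 or 2, 11 without replicate 3 of that group and 1 in the 6-library fit. Mup20 was 50.8, 186 and 139 in Akt/Nras and 1206, 773 and 312 in Akt/Nras/Foxo1AAA libraries, against 162 to 242 in normal liver, so that every Akt/Nras/Foxo1AAA library was above every normal liver (limma log2 change 2.58 ± 0.52 SE, adjusted p = 0.0117, 6-library fit 0.0608). Mup12 was 7.88, 17.8 and 47.1 in Akt/Nras and 671, 242 and 73.2 in Akt/Nras/Foxo1AAA libraries, against 12220 to 24320 in normal liver (limma log2 change 3.52 ± 0.75 SE, adjusted p = 0.0146, 6-library fit 0.0663). For Mup12 all tumours were far below normal liver, and the Akt/Nras/Foxo1AAA values ran from replicate 1 at the top to replicate 3 near the highest Akt/Nras library. Mup genes are near-identical copies that share reads, so these values, and that of the pseudogene Mup-ps19 (limma log2 change 2.87 ± 0.59 SE, adjusted p = 0.0131, 6-library fit 0.0508), are uncertain. Mup-ps19 was not called with Akt/Nras/Foxo1AAA replicate 1 left out (adjusted p up to 0.0522). Among 17 female-biased genes 3 rose (17.6%, against 8.83% of all genes), Cyp2a4, Cyp2b9 and Abcd2, and 1 fell (5.88%, against 4.81%), Prom1. Cyp2b9 was 1.62, 1.77 and 3.15 in Akt/Nras and 9.96, 5.79 and 7.91 in Akt/Nras/Foxo1AAA libraries, against 1.87 to 4.16 in normal liver (limma log2 change 1.49 ± 0.25 SE, adjusted p = 0.00641, 6-library fit 0.0408). Cyp2a4, a steroid hydroxylase with a near-identical copy, was 40.6, 47.9 and 77.5 in Akt/Nras and 295, 126 and 125 with Foxo1AAA, against 0.197 to 2.31 in normal liver (limma log2 change 1.63 ± 0.43 SE, adjusted p = 0.0335, 6-library fit 0.0584, not called with a pseudocount of 0.1 at 0.147). Cyp2a4 was not called with normal liver replicate 4, Akt/Nras replicate 1 or 2 or Akt/Nras/Foxo1AAA replicate 1 or 2 left out (adjusted p up to 0.119). The 3 female-biased calls were 1 in the 6-library fit and without Akt/Nras replicate 1 or 2 or Akt/Nras/Foxo1AAA replicate 1 or 2. Of 3 tested genes of the sex chromosomes 0 were called, and the Y-linked Ddx3y was 10.9, 9.85 and 9.44 in Akt/Nras and 7.87, 8.89 and 10.4 in Akt/Nras/Foxo1AAA libraries.

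Iron genes changed in 6 cases. Hamp encodes hepcidin, the hormone that limits iron uptake, and was 31.1, 19.1 and 40.9 in Akt/Nras and 193, 139 and 114 in Akt/Nras/Foxo1AAA libraries, against 4022 to 5461 in normal liver. Every Akt/Nras/Foxo1AAA library was above every Akt/Nras library and far under normal liver (limma log2 change 2.28 ± 0.26 SE, adjusted p = 0.00192, 6-library fit 0.0408). Hjv, the hemojuvelin co-receptor that drives Hamp, was 10.3, 13.2 and 15.99 in Akt/Nras and 53.2, 45.5 and 26.6 with Foxo1AAA, against 50.6 to 66.01 in normal liver, so replicate 1 of the Akt/Nras/Foxo1AAA group reached the normal range (limma log2 change 1.56 ± 0.23 SE, adjusted p = 0.00441, 6-library fit 0.0422). Tfrc, the transferrin receptor, fell from 25.98, 17.6 and 21.1 to 11.9, 11.8 and 15.4 (limma log2 change -0.68 ± 0.17 SE, adjusted p = 0.0301, 6-library fit 0.0653). Tfrc was not called with Akt/Nras replicate 1 or 3 or Akt/Nras/Foxo1AAA replicate 1 or 2 left out (adjusted p up to 0.107). In the iron and heme list 5 of 25 rose (20%, against 8.83% of all genes) and 1 fell (4%, against 4.81%). Those that rose were 2 in the 6-library fit and without Akt/Nras/Foxo1AAA replicate 1 or 2, 3 on the scale of equal totals and 9 with voom. The other 3 that rose were Ftl1, the ferritin light chain, and Cpox and Fech, enzymes of heme synthesis. Markers of red blood cells had a positive log2 change in all 5 tested members, with a median of 1.08. Of these 1 rose, Alas2, the erythroid enzyme that starts heme synthesis (limma log2 change 1.09 ± 0.25 SE, adjusted p = 0.0199, 6-library fit 0.0805), and voom called 3. Alas2 was not called with Akt/Nras replicate 1 or Akt/Nras/Foxo1AAA replicate 2 left out (adjusted p up to 0.0697). The summed level of the list overlapped between the groups, at 1009 to 2523 FPKM in Akt/Nras, 2046 to 3689 in Akt/Nras/Foxo1AAA and 1001 to 1786 in normal liver libraries, and the part of blood cells in the iron and heme result was not tested.

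Interferon-stimulated genes also rose in large numbers. These genes carry the antiviral state that cells enter on interferon signals, and several are GTPases or RNA sensors. Of 39 tested members 24 rose (61.5%, against 8.83% of all genes), 0 fell, and all 39 had a positive log2 change, with a median of 0.65. On the scale of equal totals 22 rose and 0 fell. With the 6 libraries 9 were called, and the count was 11 without Akt/Nras/Foxo1AAA replicate 1 or 2, 15 without Akt/Nras replicate 1 and with no filter on low values, and 12 with a minimum of 5 FPKM. Summed over all listed members, 376.8 to 517.4 FPKM were measured in Akt/Nras, 639 to 932.8 in Akt/Nras/Foxo1AAA and 517.1 to 563.2 in normal liver libraries.

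Iigp1, an interferon-induced GTPase of cell-autonomous defence, was 18.8, 25.6 and 25.6 in Akt/Nras and 58.7, 48.8 and 45.8 in Akt/Nras/Foxo1AAA libraries, against 48.4 to 58.04 in normal liver (limma log2 change 1.105 ± 0.14 SE, adjusted p = 0.00283, 6-library fit 0.0408). Igtp, a second such GTPase, was 6.495, 8.93 and 11.8 in Akt/Nras and 23.3, 20.5 and 16.6 with Foxo1AAA, against 29.7 to 45.01 in normal liver (limma log2 change 1.09 ± 0.21 SE, adjusted p = 0.0104, 6-library fit 0.0475). For Iigp1 the Akt/Nras/Foxo1AAA libraries lay around the normal level, and for Igtp between Akt/Nras and normal liver. Isg15, Ifit1 and Oas1a were picked for their promoters, after their values were seen. Isg15, a ubiquitin-like modifier, was 10.7, 12.9 and 14.6 in Akt/Nras and 23.4, 25.8 and 18.8 in Akt/Nras/Foxo1AAA libraries, against 10.4 to 15.6 in normal liver, so its Akt/Nras/Foxo1AAA libraries were above both other groups (limma log2 change 0.79 ± 0.16 SE, adjusted p = 0.0131, 6-library fit 0.0485). Ifit1, which binds foreign RNA caps, was 1.53, 1.38 and 1.502 in Akt/Nras and 5.58, 3.83 and 2.42 with Foxo1AAA, against 0.866 to 1.39 in normal liver (limma log2 change 0.95 ± 0.20 SE, adjusted p = 0.0134, 6-library fit 0.0587). Oas1a, a sensor of double-stranded RNA with close copies, was 4.87, 4.48 and 6.07 in Akt/Nras and 9.56, 9.02 and 7.06 with Foxo1AAA, against 0.544 to 0.998 in normal liver (limma log2 change 0.64 ± 0.14 SE, adjusted p = 0.0174, 6-library fit 0.0575). Ifi27l2a had the largest log2 change of the list (limma log2 change 1.17 ± 0.34 SE, adjusted p = 0.0456, 6-library fit 0.106, not called with a pseudocount of 0.1 at 0.0617). Ifi27l2a was not called with normal liver replicate 1, 2 or 3, Akt/Nras replicate 1 or 3 or any Akt/Nras/Foxo1AAA library left out (adjusted p up to 0.123). Isg15 was not called with Akt/Nras/Foxo1AAA replicate 1 or 2 left out (adjusted p up to 0.0538), and Oas1a was not called with Akt/Nras replicate 2 or Akt/Nras/Foxo1AAA replicate 1 or 2 left out (adjusted p up to 0.0721). The summed level of T and NK cell markers, given with the other cell types below, did not overlap between the groups either, although that of Cd3e alone did, and their part in the rise was not tested.

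The interferon-stimulated response element was searched on both strands in the same promoter windows, a search added after the values were seen. It was in 3.44% of all 32851 windows, and 3.53% of the 8585 tested genes with matched windows held it in at least 1 window. Of the 24 genes that rose 17 had matched windows, and 10 of these genes held it (58.8%). Of the 15 members that were not called 13 had matched windows, and 7 of these held it (53.8%). Windows of 4 of these 10 called genes are shown as examples of single, separate and overlapping matches, as the 150 bases before the start in GRCm38.p6 with matches in capitals. They are Igtp at chr11:58199406-58199555 (plus strand), Isg15 at chr4:156200819-156200968 (minus strand), Ifit1 at chr19:34640739-34640888 (plus strand) and Oas1a at chr5:120907526-120907675 (minus strand).
Igtp: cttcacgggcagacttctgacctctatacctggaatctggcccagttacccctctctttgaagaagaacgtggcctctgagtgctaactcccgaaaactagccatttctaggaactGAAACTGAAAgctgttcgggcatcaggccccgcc
Isg15: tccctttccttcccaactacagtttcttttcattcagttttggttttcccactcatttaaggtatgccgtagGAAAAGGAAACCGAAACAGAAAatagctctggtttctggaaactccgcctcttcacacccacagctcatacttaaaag
Ifit1: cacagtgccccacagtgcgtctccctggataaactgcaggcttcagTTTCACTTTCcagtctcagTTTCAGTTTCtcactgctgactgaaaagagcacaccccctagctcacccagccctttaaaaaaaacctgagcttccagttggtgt
Oas1a: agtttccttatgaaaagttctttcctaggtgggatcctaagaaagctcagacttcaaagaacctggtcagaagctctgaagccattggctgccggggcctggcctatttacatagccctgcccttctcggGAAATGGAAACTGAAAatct

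In Isg15 the capitals join 3 overlapping matches, which start 78, 72 and 66 bases before the gene start. Oas1a holds 2 overlapping matches at 20 and 14 bases, Ifit1 has 2 separate matches on the reverse strand at 104 and 85 bases, and Igtp has 1 at 34 bases.

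**Figure D4:**
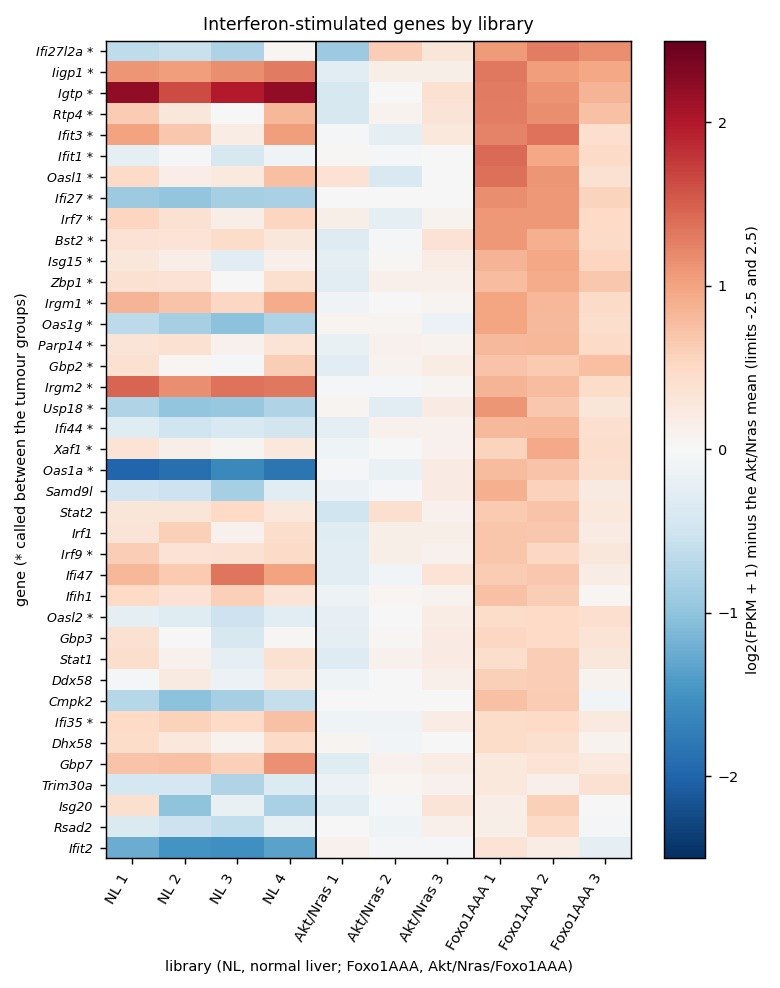
Rows are the 39 tested interferon-stimulated genes in order of their change between tumour groups and columns are the 10 libraries, with colour for log2(FPKM + 1) minus the Akt/Nras mean (red higher, blue lower) and an asterisk for the 24 called genes. The columns of Akt/Nras/Foxo1AAA replicates 1 and 2 are redder than that of replicate 3, and normal liver is red for Igtp and Irgm2 but blue for Oas1a and Ifit2.

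Among the 65 lists read, genes of bile duct cells and liver progenitors had the highest share of genes that fell. Of 19 tested members 11 fell (57.9%, against 4.81% of all genes) and 0 rose, with a median log2 change of -0.51. In the 6-library fit 4 were called, and the count was 6 without Akt/Nras replicate 1 or 3 or Akt/Nras/Foxo1AAA replicate 1 or 2. Krt19, a keratin of bile ducts, was 12.3, 7.97 and 28.9 in Akt/Nras and 1.69, 1.42 and 2.19 in Akt/Nras/Foxo1AAA libraries, against 0.421 to 1.58 in normal liver. Its Akt/Nras libraries differed among themselves, with replicate 3 the highest, and all were well above the Akt/Nras/Foxo1AAA libraries (limma log2 change -2.47 ± 0.37 SE, adjusted p = 0.00474, 6-library fit 0.0408). Cftr, the chloride channel of ducts, was 8.46, 5.85 and 7.64 in Akt/Nras and 0.986, 1.05 and 0.297 with Foxo1AAA, against 0 to 0.0330 in normal liver (limma log2 change -2.24 ± 0.18 SE, adjusted p = 0.000227, 6-library fit 0.017). Epcam, an epithelial adhesion protein, was 37.3, 17.2 and 25.2 in Akt/Nras and 9.46, 8.69 and 5.87 with Foxo1AAA, against 0.559 to 1.67 in normal liver (limma log2 change -1.57 ± 0.27 SE, adjusted p = 0.00743, 6-library fit 0.0454). Cldn7, a tight junction protein, fell 4.29-fold (limma log2 change -1.805 ± 0.45 SE, adjusted p = 0.0269, 6-library fit 0.0994, not called with a pseudocount of 0.1 at 0.0506). Cldn7 was not called with Akt/Nras replicate 1 or 3 or Akt/Nras/Foxo1AAA replicate 2 left out (adjusted p up to 0.0834). Not every marker of the list followed, since Sox9, a duct and progenitor transcription factor, was 39.5, 41.2 and 36.9 in Akt/Nras and 21.2, 26.5 and 35.8 with Foxo1AAA (limma log2 change -0.51 ± 0.17 SE, adjusted p = 0.075, 6-library fit 0.139), and Spp1, osteopontin, was 4008, 5729 and 5358 in Akt/Nras and 2625, 5346 and 3887 with Foxo1AAA with overlapping groups (limma log2 change -0.39 ± 0.26 SE, adjusted p = 0.336, 6-library fit 0.421). The list's summed FPKM, most of it Spp1, was 4675 to 6312 in Akt/Nras, 3274 to 5914 in Akt/Nras/Foxo1AAA and 52.4 to 58.4 in normal liver libraries. In bulk tissue fewer cells of a type and less RNA per cell cannot be told apart.

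Some mucosal and squamous epithelial genes fell too. Sprr1a, a cornified envelope protein of squamous epithelium, was 24.3, 16.1 and 26.5 in Akt/Nras and 2.73, 4.58 and 3.47 in Akt/Nras/Foxo1AAA libraries, against 0 to 0.212 in normal liver (limma log2 change -2.33 ± 0.19 SE, adjusted p = 0.000286, 6-library fit 0.017). Vil1, an actin bundler of microvilli, fell 4.61-fold (limma log2 change -1.23 ± 0.20 SE, adjusted p = 0.00641, 6-library fit 0.0486). Cdh17, an intestinal cadherin, was 45.6, 38.4 and 28.8 in Akt/Nras but 5.11, 10.4 and 29.7 in Akt/Nras/Foxo1AAA libraries, so replicate 3 lay within the Akt/Nras range (limma log2 change -1.56 ± 0.44 SE, adjusted p = 0.0423, 6-library fit 0.129, not called with a pseudocount of 0.1 at 0.0542). Cdh17 was not called with any normal liver library, any Akt/Nras library or Akt/Nras/Foxo1AAA replicate 1 or 2 left out (adjusted p up to 0.119). These and Krt8 made 4 of 9 tested mucosal and squamous genes that fell (44.4%), with 18 further members below the filter, and Sprr1a and Vil1 were the 2 called in the 6-library fit and in each fit without 1 of the normal liver libraries, Akt/Nras replicate 1 or 3, or Akt/Nras/Foxo1AAA replicate 1 or 2. Outside these lists, the genes picked for the size of their decrease included Fstl3, Anxa13 and A2m. Fstl3, a secreted inhibitor of activin, was 30.3, 10.7 and 23.9 in Akt/Nras and 3.402, 4.03 and 4.61 with Foxo1AAA, against 0 to 0.419 in normal liver (limma log2 change -2.07 ± 0.30 SE, adjusted p = 0.00413, 6-library fit 0.0408). Anxa13, an annexin of epithelial membranes, was 53.8, 32.2 and 32.1 in Akt/Nras and 14.2, 16.4 and 12.3 with Foxo1AAA (limma log2 change -1.37 ± 0.19 SE, adjusted p = 0.00349, 6-library fit 0.0408). A2m, a broad protease inhibitor, was 37.3, 12.5 and 14.1 in Akt/Nras and 0.879, 3.196 and 11.9 with Foxo1AAA, and the nearest libraries of the groups were close (limma log2 change -2.09 ± 0.59 SE, adjusted p = 0.0411, 6-library fit 0.127, not called with a pseudocount of 0.1 at 0.0632). It was not called with any normal liver library, any Akt/Nras library or Akt/Nras/Foxo1AAA replicate 1 or 2 left out (adjusted p up to 0.128).

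Matrix genes were lower in part. Of 31 tested collagens and matrix genes 12 fell (38.7%) and 1 rose (3.23%), with a median log2 change of -0.47. The 12 were 2 in the 6-library fit, 7 without Akt/Nras replicate 1 and 6 without Akt/Nras/Foxo1AAA replicate 1 or 2. They were 25 on the scale of equal totals, where 29.8% of all tested genes fell. Mmp7, the matrix protease matrilysin, was 8.99, 9.902 and 29.9 in Akt/Nras and 2.89, 3.35 and 3.47 in Akt/Nras/Foxo1AAA libraries, against 0.104 to 0.320 in normal liver (limma log2 change -1.82 ± 0.34 SE, adjusted p = 0.00888, 6-library fit 0.0551). Adamts1, a protease of proteoglycans, was 19.2, 18.98 and 20.4 in Akt/Nras and 8.801, 10.7 and 9.18 with Foxo1AAA with little spread in either group (limma log2 change -0.96 ± 0.09 SE, adjusted p = 0.000859, 6-library fit 0.031). Loxl2, which crosslinks collagen, fell 2.34-fold (limma log2 change -0.9972 ± 0.23 SE, adjusted p = 0.0194, 6-library fit 0.0662, not called with a pseudocount of 0.1 at 0.0803). Loxl2 was not called with Akt/Nras/Foxo1AAA replicate 1 or 2 left out (adjusted p up to 0.0718). Col18a1, a basement membrane collagen that normal liver expresses at 236 to 272, rose from 78.9, 70.6 and 75.6 to 136, 113 and 94.8 (limma log2 change 0.59 ± 0.12 SE, adjusted p = 0.0145, 6-library fit 0.0663). Of 19 tested YAP and TEAD targets 4 fell (21.1%, against 4.81% of all genes), F3, Tead2, Arhgef17 and Tead1. The count was 0 in the 6-library fit, and 2 and 1 without Akt/Nras/Foxo1AAA replicates 1 and 2. It was 13 on the scale of equal totals, with the same 29.8% of all tested genes. F3, tissue factor, was 10.9, 4.79 and 9.12 in Akt/Nras and 3.07, 2.86 and 2.91 in Akt/Nras/Foxo1AAA libraries (limma log2 change -1.17 ± 0.25 SE, adjusted p = 0.0149, 6-library fit 0.0531). F3 was not called with Akt/Nras/Foxo1AAA replicate 2 left out (adjusted p up to 0.0512).

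**Figure D5:**
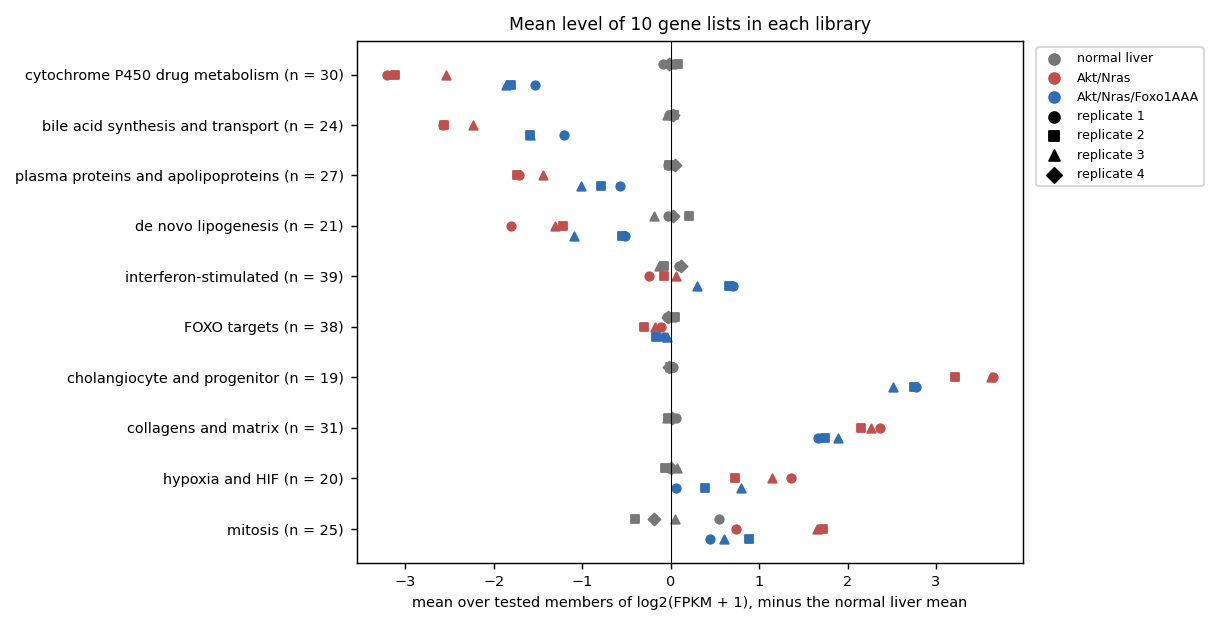
Points give the mean of log2(FPKM + 1) over the tested members of 10 gene lists in each library, minus the mean of the normal livers (x axis), coloured by group and shaped by replicate number. The tumour groups do not overlap for cytochrome P450, bile acid, plasma protein, lipogenesis and interferon-stimulated genes, where Akt/Nras/Foxo1AAA libraries are higher, or for cholangiocyte genes and matrix genes, where they are lower, and they overlap for FOXO targets, hypoxia and mitosis.

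Proliferation genes mostly missed the threshold on the deposited scale, and their level differed among replicates. All 25 tested mitosis genes had a negative log2 change, with a median of -0.71, but only Ccnf, a cyclin of ubiquitin ligase complexes, was called (4.00%, against 4.81%). Ccnf was 1.83, 2.17 and 2.21 in Akt/Nras and 1.17, 1.198 and 1.15 in Akt/Nras/Foxo1AAA libraries (limma log2 change -0.50 ± 0.14 SE, adjusted p = 0.0401, 6-library fit 0.0502, not called with a pseudocount of 0.1 at 0.0603). Ccnf was not called with normal liver replicate 3 or 4, any Akt/Nras library or any Akt/Nras/Foxo1AAA library left out (adjusted p up to 0.112). On the scale of equal totals 21 of the 25 fell, where 29.8% of all tested genes fell. Without Akt/Nras replicate 1, the lowest Akt/Nras library of the list, 16 fell. The summed level of the list was 61.5 to 160.1 FPKM in Akt/Nras, 44.1 to 74.1 in Akt/Nras/Foxo1AAA and 10.6 to 51.9 in normal liver libraries. Of 20 G1 cyclins and CDK inhibitors 0 were called, and 7 fell on the scale of equal totals, where 29.8% of all tested genes fell. Cdkn1a, the p21 inhibitor, was 68.1, 64.1 and 54.8 in Akt/Nras and 32, 38.1 and 75.7 in Akt/Nras/Foxo1AAA libraries, with replicate 3 above the whole Akt/Nras group (limma log2 change -0.45 ± 0.27 SE, adjusted p = 0.288, 6-library fit 0.382), and Ccnd1, cyclin D1, was 29.1, 48.9 and 40.4 in Akt/Nras and 26.4, 35.5 and 47.5 with Foxo1AAA (limma log2 change -0.12 ± 0.29 SE, adjusted p = 0.816, 6-library fit 0.794). Cdkn1b, the p27 inhibitor and a FOXO target in other settings, was 13.5, 11.7 and 12.9 in Akt/Nras and 7.62, 8.36 and 11.1 with Foxo1AAA and missed the threshold (limma log2 change -0.46 ± 0.14 SE, adjusted p = 0.0521, 6-library fit 0.106). Of 26 apoptosis genes Fas, a death receptor, rose and Birc2, an inhibitor of apoptosis, fell (limma log2 change 0.51 ± 0.15 SE, adjusted p = 0.0448, 6-library fit 0.107, not called with a pseudocount of 0.1 at 0.0511, not called on equal totals at 0.113 for Fas, and limma log2 change -0.41 ± 0.11 SE, adjusted p = 0.0346, 6-library fit 0.108 for Birc2). Each direction held 3.85% of the 26 apoptosis genes, against 8.83% (higher) and 4.81% (lower) of all genes. Fas was not called with any normal liver library, any Akt/Nras library or Akt/Nras/Foxo1AAA replicate 1 or 2 left out (adjusted p up to 0.162). Birc2 was not called with normal liver replicate 3 or 4, Akt/Nras replicate 2 or 3 or Akt/Nras/Foxo1AAA replicate 1 or 2 left out (adjusted p up to 0.123).

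Of 14 tested genes of EGF receptors and related receptors 1 rose (7.14%, against 8.83% of all genes), Erbb3, and 2 fell (14.3%, against 4.81%), Erbb2 and Fgfr3, with 0 and 1 in the 6-library fit. Erbb3, the neuregulin receptor of hepatocytes, was 6.55, 4.85 and 6.29 in Akt/Nras and 17.1, 10.9 and 9.09 in Akt/Nras/Foxo1AAA libraries, against 33.1 to 45.8 in normal liver (limma log2 change 0.92 ± 0.20 SE, adjusted p = 0.0172, 6-library fit 0.0627). Erbb2, its partner receptor, was 2.89, 2.29 and 2.65 in Akt/Nras and 1.31, 1.03 and 1.22 with Foxo1AAA, against 0.261 to 0.836 in normal liver (limma log2 change -0.72 ± 0.15 SE, adjusted p = 0.0118, 6-library fit 0.0408, not called with a pseudocount of 0.1 at 0.0566). Neither pair of tumour groups overlapped, and both calls were kept whichever library was left out. Fgfr3, a receptor of fibroblast growth factors, fell 1.64-fold (limma log2 change -0.62 ± 0.17 SE, adjusted p = 0.0335, 6-library fit 0.106) and was not called with normal liver replicate 4, Akt/Nras replicate 3 or Akt/Nras/Foxo1AAA replicate 1 or 3 left out (adjusted p up to 0.0891).

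Transcription factors of hepatocytes were called higher in 6 of 24 cases (25.0%, against 8.83% of all genes) and lower in 1 (4.17%, against 4.81%). The higher calls were 1 in the 6-library fit and 3 on the scale of equal totals. Cebpa, a factor that maintains hepatocyte metabolism, was 78.3, 105 and 138 in Akt/Nras and 227, 192 and 180.2 in Akt/Nras/Foxo1AAA libraries, against 433 to 486 in normal liver (limma log2 change 0.92 ± 0.18 SE, adjusted p = 0.00992, 6-library fit 0.0575). Atf5, a stress-responsive factor, was 174, 194 and 234 in Akt/Nras and 507, 375 and 380.3 with Foxo1AAA, against 93.4 to 122 in normal liver, so Akt/Nras/Foxo1AAA libraries were highest of all groups (limma log2 change 1.06 ± 0.16 SE, adjusted p = 0.00495, 6-library fit 0.0408).

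The tissue label was checked against markers of hepatocytes and of other cells. Hepatocyte genes such as Alb were abundant in all tumours. Their levels differed from normal by unequal amounts. Among members with at least 10 FPKM in normal liver, the median level was 16.2% of normal in Akt/Nras and 32.3% in Akt/Nras/Foxo1AAA tumours over 26 cytochrome P450 genes, and 27.6% and 52.3% over 26 plasma proteins. These percentages hold for the deposited scale, on which normal liver libraries had the highest FPKM totals (692000 to 743200). Hsd3b5, a steroid dehydrogenase of male hepatocytes, was 211 to 274 FPKM in normal liver, 0 to 0.273 in Akt/Nras and 0.0452 to 0.0722 in Akt/Nras/Foxo1AAA libraries, or 0.0416% and 0.0254% of the normal mean, and Serpina4-ps1 was 0.415% and 0.168%. These 2 genes, chosen after their values were seen, had lower means in Akt/Nras/Foxo1AAA than in Akt/Nras tumours, while most lists of hepatocyte genes had higher ones. For Hsd3b5 the tumour groups overlapped near the floor, where 1 read of a gene of 1 kb was worth 0.0469 to 0.0700 FPKM. The order of its tumour means is therefore not established. Of 14 Kupffer cell markers 3 rose (21.4%, against 8.83% of all genes), Cd5l, Folr2 and Nr1h3, of which the last is also a hepatocyte gene. Their count was 1 without Akt/Nras/Foxo1AAA replicate 1 or 2 and in the 6-library fit. Folr2 was 0.157, 0.473 and 0.486 in Akt/Nras and 1.21, 1.45 and 1.22 in Akt/Nras/Foxo1AAA libraries. It thus passed the filter of 1 FPKM only through the group where it was high, and by little. Cd5l was 8.78, 16.99 and 29.3 in Akt/Nras and 49.3, 42.3 and 36.9 in Akt/Nras/Foxo1AAA libraries, against 22.7 to 41.6 in normal liver (limma log2 change 1.32 ± 0.36 SE, adjusted p = 0.0386, 6-library fit 0.0892). Cd5l was not called with normal liver replicate 4, Akt/Nras replicate 1 or 2 or Akt/Nras/Foxo1AAA replicate 1 or 2 left out (adjusted p up to 0.127). The summed Kupffer markers were 313.9 to 475 in Akt/Nras, 459.5 to 469.9 in Akt/Nras/Foxo1AAA and 310.9 to 452.2 in normal liver libraries, with none of the members at 0 in all tumours.

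T and NK cell markers summed to 4.23 to 6.82 FPKM in Akt/Nras and 7.05 to 8.71 in Akt/Nras/Foxo1AAA libraries, 21 of 23 were below the filter, and Cd3e was 0.0414 to 0.161 and 0.0411 to 0.103. Neutrophil markers summed to 16.5 to 34.6 and 10.1 to 35.4, and 0 of 4 tested ones were called. Over all tested genes 8.83% rose and 4.81% fell. Of 23 monocyte and macrophage markers 0 rose and 1 fell (4.35%), and of 22 endothelial markers 2 rose (9.09%) and 1 fell (4.55%). Of 4 B and plasma cell markers 1 rose and 1 fell, and of 19 stellate cell and fibroblast markers 0 rose and 3 fell (15.8%). The part of these cells in the interferon-stimulated and matrix results was not tested.

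Growth hormone signalling genes moved in both directions, with 4 of 17 that rose (23.5%, against 8.83% of all genes) and 2 that fell (11.8%, against 4.81%). Ghr, the growth hormone receptor, was 9.06, 10.7 and 10.6 in Akt/Nras and 19.2, 16.4 and 12.5 in Akt/Nras/Foxo1AAA libraries, against 105 to 118 in normal liver (limma log2 change 0.60 ± 0.14 SE, adjusted p = 0.0186, 6-library fit 0.0755). Ghr was not called with Akt/Nras replicate 1 or Akt/Nras/Foxo1AAA replicate 1 or 2 left out (adjusted p up to 0.0644). Socs2, an inhibitor that STAT5 induces, fell from 7.33, 4.95 and 6.03 to 2.01, 3.03 and 2.44 (limma log2 change -1.02 ± 0.29 SE, adjusted p = 0.0424, 6-library fit 0.0408). Socs2 was not called with normal liver replicate 1 or 4, any Akt/Nras library or any Akt/Nras/Foxo1AAA library left out (adjusted p up to 0.142), and the 2 lower calls of the list were 1 in 7 of these 8 fits. Igfbp7, a secreted binding protein of vessels and stroma, fell from 405, 318 and 284 to 209, 213 and 210.5 (limma log2 change -0.65 ± 0.13 SE, adjusted p = 0.0118, 6-library fit 0.0575). The 4 higher calls were 0 without Akt/Nras/Foxo1AAA replicate 1, 2 without replicate 2 of that group or Akt/Nras replicate 1, and 0 in the 6-library fit, which called 1 lower.

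Zonation genes, which differ between hepatocytes near the central vein and near the portal vein, rose from both zones. Of 18 pericentral and Wnt target genes 9 rose (50%) and 2 fell (11.1%), with 1 and 0 in the 6-library fit, and of 22 periportal genes 8 rose (36.4%) and 1 fell (4.55%), with 0 in the 6-library fit. Over all tested genes 8.83% rose and 4.81% fell. The 8 periportal calls were 1 and 2 without Akt/Nras/Foxo1AAA replicates 1 and 2, 4 without Akt/Nras replicate 1 or 2 and 5 without normal liver replicate 1 or 4. Cldn2, a tight junction protein and Wnt target, fell from 101, 66.3 and 67.95 in Akt/Nras to 45.7, 40.7 and 46.3 in Akt/Nras/Foxo1AAA libraries, against 30.5 to 32.5 in normal liver (limma log2 change -0.79 ± 0.14 SE, adjusted p = 0.00865, 6-library fit 0.0554). Ang, a secreted ribonuclease, was 7.94, 13.99 and 36.6 in Akt/Nras and 105, 78.9 and 74.3 with Foxo1AAA (limma log2 change 2.33 ± 0.40 SE, adjusted p = 0.00743, 6-library fit 0.0508). Uox, the urate oxidase of peroxisomes, was 87.99, 145 and 197 in Akt/Nras and 277, 283 and 250 in Akt/Nras/Foxo1AAA libraries (limma log2 change 0.98 ± 0.25 SE, adjusted p = 0.0286, 6-library fit 0.0843). Uox was not called with Akt/Nras replicate 1 or 2 or Akt/Nras/Foxo1AAA replicate 1 or 2 left out (adjusted p up to 0.0906).

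Lipid droplet and lipolysis genes included a pair of fatty acid binding proteins called in opposite directions. Fabp1, the liver form, was 262, 621 and 479 in Akt/Nras and 1513, 1187 and 640 in Akt/Nras/Foxo1AAA libraries, against 11210 to 12810 in normal liver (limma log2 change 1.29 ± 0.34 SE, adjusted p = 0.0324, 6-library fit 0.108). Fabp5, the epidermal form, was 48.8, 64.2 and 49.8 in Akt/Nras and 22.2, 37.8 and 37.4 with Foxo1AAA, against 22.5 to 25.4 in normal liver (limma log2 change -0.75 ± 0.19 SE, adjusted p = 0.0257, 6-library fit 0.0976). Fabp1 was not called with normal liver replicate 4, Akt/Nras replicate 1 or 3 or Akt/Nras/Foxo1AAA replicate 1 or 2 left out (adjusted p up to 0.12), and Fabp5 was not called with Akt/Nras replicate 2 left out (adjusted p up to 0.0712). Mgll, which splits monoglycerides, was 11.6, 15.2 and 16.2 in Akt/Nras and 44.5, 29.99 and 23.2 in Akt/Nras/Foxo1AAA libraries, against 65.5 to 76.8 in normal liver (limma log2 change 1.09 ± 0.20 SE, adjusted p = 0.00888, 6-library fit 0.0542). In the list of lipid droplets and lipolysis 5 of 21 rose (23.8%, against 8.83% of all genes) and 1 fell (4.76%, against 4.81%), with 0 in the 6-library fit, 2 that rose without Akt/Nras/Foxo1AAA replicate 2, and 3 without normal liver replicate 4, Akt/Nras replicate 1 or Akt/Nras/Foxo1AAA replicate 1.

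All but 3 of the 12 genes picked by the 6-library fit are described above. Fam83a, an adaptor of growth factor signalling, was 13.4, 11.6 and 12.9 in Akt/Nras and 26.01, 25.9 and 25.98 in Akt/Nras/Foxo1AAA libraries, against 0.0659 to 0.598 in normal liver (limma log2 change 0.99 ± 0.13 SE, adjusted p = 0.00286, 6-library fit 0.017, not called with a pseudocount of 0.1 at 0.11). The Akt/Nras/Foxo1AAA libraries lay almost on one level, above every Akt/Nras library, and all tumours were above normal liver. The other 2 are short genes, Mir1932 of 90 bases and the unnamed ENSMUSG00002076241 of 110 bases. Mir1932 had 4 reads in each Akt/Nras library, ENSMUSG00002076241 had 10, 6 and 9, and both had 0 in the other 7 libraries. Both calls rest on those few reads, so no fold is given.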

How the data were processed

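RNA of 10 mouse liver samples was sequenced. The authors deposited 1 table of FPKM per gene for all samples, with values for 56748 genes. Per the labels' protocols, libraries were made by polyA capture or rRNA removal, without saying which was used for which sample. The submitters' processing notes name FastQC 0.11.7 and the genome GRCm38. The aligner, counter and strand setting are not given there, so reads of near-identical copies (Mup, Cyp2c, Ces, Ugt and Oas1 genes) and of overlapping genes may be shared out in an unknown way. Table positions overlapped RefSeq's GRCm38.p6 for only 11.6% of 38891 symbols, and no table coordinates are given.

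From the deposited FPKM, genes with at least 1 FPKM in at least 3 of the 6 tumour libraries were tested on log2(FPKM + 1) with limma 3.58.1 (R 4.3.3, empirical Bayes, Benjamini-Hochberg adjustment over all 11549 genes, threshold 0.05), with a group term and all 10 libraries in 1 fit. In every library 100% of the FPKM values divided back to whole reads (within 0.02), which gave the depths, and voom on those reads was an alternative that called 1282 genes higher and 694 lower. The total by which the FPKM of a library had been scaled was compared with its gene reads. It was 0.875 to 0.928 of them in Akt/Nras/Foxo1AAA, 1.00 to 1.06 in Akt/Nras and 0.629 to 0.668 in normal liver libraries. Other scalings were therefore tried. The fits were checked on simulated data.

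The members and the 65 gene lists were chosen with earlier results of these data known. Named genes were the panel of injected genes and AKT substrates with 5 FOXO1 targets, the 12 largest increases and decreases, up to 12 genes called by the 6-library fit, and up to 3 per direction from each of 37 lists, less some genes that are not reported here, which left 146, of which 123 were called. Outside that rule, and chosen after their values were seen, were Abcb11, Alas2, Alb, Cd3e, Cpox, Ddx3y, Ero1a, Fech, Gabarapl1, Hsd3b5, Ifit1, Isg15, Krt8, Mttp, Oas1a, P4ha1, Serpina4-ps1, Slc10a1, Sox9, Spp1, Tead1, Gckr, Aldoa, Hk1 and Pgam1. Alternatives were other pseudocounts, filters and scalings, the tumour libraries alone, library weights, a variance per group, a replicate block and leaving out each library.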

Additional observations from a re-analysis of the deposited data

Results flagged for a closer look

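Among the 146 named genes, 8 had a normal liver library set far apart from the other 3, by a rule that chance meets in about 1 in 20 groups; the tumour groups of 3 are too small for it. Normal liver replicate 2 was high for Bad (5.19 FPKM, next 4.11) and Cyp2a4 (2.31, next 0.522). Normal liver replicate 1 was high for Erbb2 (0.836, next 0.349) and for Cdh17 (0.0191, the others listed at 0), and low for Gcgr (149.5, next 161.8) and Sult2a8 (306.9, next 342.4). Normal liver replicate 3 was high for Grb10 (0.678, next 0.392) and Socs2 (7.75, next 3.29). Normal livers enter the comparison of the tumour groups only through the shared spread.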

How the results depend on the processing

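The 1020 higher calls between tumour groups became 655 with no filter on low values, 649 on equal FPKM totals, 221 with the 6 tumour libraries alone and 1970 with array weights. The 556 lower calls became 337 with a pseudocount of 0.1, 356 with a minimum of 5 FPKM, 3436 on equal totals, 1576 on equal totals without the 50 most abundant genes, 102 with the 6 tumour libraries alone, 1733 with array weights and 359 with a variance factor per group. Leaving out 1 library gave 453 to 1248 higher and 169 to 755 lower calls. Apart from the fits with a replicate block, given below, the other planned settings stayed within 1.5 times. The cause of these shifts was not tested. All 123 called named genes kept their direction wherever they were tested, and 39 were called with the 6 tumour libraries alone, 105 with a pseudocount of 0.1, 79 with no filter and 118 on equal totals.

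Residual correlations of same-numbered tumours were -0.11, 0.13 and -0.18, and those of differently numbered tumours ran from -0.16 to 0.21. With 3 libraries per group these values cannot show whether the replicate numbers pair the samples. With a replicate block the calls were 405 higher and 178 lower, and with the block in the 6 tumour libraries alone 8 and 5.

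Log2 changes that turned sign all belonged to genes that were not called. On equal totals these were Akt1s1 (-0.075), Akt2 (-0.062), Foxo4 (-0.063), G6pc (-0.18), Gsk3a (-0.22) and Tsc2 (-0.13). Without the 50 most abundant genes in the totals they were G6pc (-0.065), Gsk3a (-0.10) and Tsc2 (-0.026), and with array weights G6pc (-0.36), Gsk3a (-0.014) and Gsk3b (0.00416). Leaving out 1 library moved Akt1 from -0.28 to 0.14, Bad from -0.11 to 0.036, Ccnd1 from -0.33 to 0.085, G6pc from -0.14 to 0.22, Gsk3a from -0.015 to 0.044, Gsk3b from -0.17 to 0.026, Igfbp1 from -1.06 to 0.26 and Mdm2 from -0.29 to 0.024. The tumour libraries held 15390000 to 21260000 reads each, and 1 read of a gene of 1 kb was worth 0.0469 to 0.0700 FPKM in them, which bounds the precision of low values.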

Other observations

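For some gene groups not described above the count of calls differed with the scale. Over all tested genes 8.83% rose and 4.81% fell on the deposited scale, and 5.62% rose and 29.8% fell on equal totals. Of 43 cytosolic ribosomal protein genes 6 fell (14%) on the deposited scale and 39 on equal totals, and of 28 DNA replication genes 4 fell (14.3%), 16 on equal totals. Nuclear genes of oxidative phosphorylation had 0 of 37 called, with 34 positive log2 changes, and 3 fell on equal totals. Of 39 lysosome and autophagy genes 7 rose (17.9%), 3 on equal totals and 1 in the 6-library fit.

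A pair of secreted factors, chosen after their values were seen, had higher levels in Akt/Nras tumours than in the other groups. Epo, the hormone erythropoietin, was 3.91, 2.5 and 3.13 FPKM in Akt/Nras and 0.322, 0.523 and 0.983 in Akt/Nras/Foxo1AAA libraries, and was listed at 0 in each normal liver library (limma log2 change -1.38 ± 0.16 SE, adjusted p = 0.00207, 6-library fit 0.0408). Reg3b, an antibacterial lectin, was 6.39, 3.55 and 2.05 in Akt/Nras and 0, 0.0490 and 0.245 with Foxo1AAA, and was listed at 0 in each normal liver library (limma log2 change -2.099 ± 0.25 SE, adjusted p = 0.00243, 6-library fit 0.0408). Both calls were kept whichever library was left out, but the filter was not applied anew in those fits. Both genes reached 1 FPKM in the Akt/Nras libraries only, so they passed the filter through the group where they were high. Dbp, a clock output transcription factor also chosen after its values were seen, was 9.06, 9.83 and 12.4 in Akt/Nras and 25.9, 23.7 and 30.4 in Akt/Nras/Foxo1AAA libraries (limma log2 change 1.28 ± 0.22 SE, adjusted p = 0.00666, 6-library fit 0.0321). Of 16 clock genes 2 rose (12.5%, against 8.83% of all genes) and 1 fell (6.25%, against 4.81%).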
